A study of Homo sapiens with 7 samples.

Results

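The tumour cells of Hodgkin lymphoma (HL) mostly derive from B-cells but have shut down much of the B-cell programme, and the transcription factors (TFs) that run this programme were examined here in 7 HL cell lines. The 10 factors considered were PAX5, EBF1, SPIB, POU2AF1, POU2F1, POU2F2, FOXO1, IKZF1, IKZF3 and BACH2. They were taken as a fixed list of names, chosen with earlier results of these data known, as were the gene lists used below. Each factor was read from every probe set that the array annotation assigns to that gene alone. Probe sets, groups of short probes against a stretch of a transcript, were found for 9 of the 10 factors, 34 in number among the 54675 on the array, and these 9 genes stand among 19775 genes measured in this way. POU2F1 was not analysed here, because none of the annotated probe sets carries its name.

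The established lines U-HO1, SUP-HD1, KM-H2, HDLM-2, L-540, L-1236 and L-428 were profiled on 1 array each, with no treatment named and no normal B-cells among the samples used here. The arrays came from a pair of laboratories that are not assigned to lines, so laboratory and line cannot be told apart. In such bulk RNA, fewer expressing cells and less RNA per cell cannot be told apart either. A factor is therefore called kept in a line when its level lay above the background level of that array and lost when it did not, which says nothing about its level in the B-cell of origin. Background was set for each array from 107 probe sets of olfactory receptors, genes that lymphoid cells keep silent, at their 95th percentile. Levels are on the log2 scale, so a difference of 1 is a doubling. A single array per line leaves no replicate error, so lines were not tested against each other, and precision is limited by this number of arrays. How far a gene's own probe sets scatter around each other, an SD of 0.61 over 10523 genes, served as a measure of technical spread, although it can also hold differences between transcripts. HDLM-2 and L-540 are commonly described as derived from T-cells, a fact the sample labels do not carry, so no groups of lines were formed.

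During normal B-cell development EBF1 and PAX5 set up and hold the B-cell identity, together with E proteins and FOXO1. IKZF1 (Ikaros) and IKZF3 (Aiolos) are zinc finger proteins that act across the lymphoid lineage. SPIB is an ETS factor of mature B-cells and plasmacytoid dendritic cells, POU2F2 (OCT2) binds the octamer motif of immunoglobulin promoters with its coactivator POU2AF1 (BOB1/OBF1), and BACH2 restrains plasma cell differentiation.

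Some properties of the arrays bear on single values below. L-1236 had the highest background level, 5.59 against 4.49 to 4.86 in the other lines, and the fewest genes above it. In U-HO1 the 3′ probe set of ACTB exceeded the 5′ probe set by 2.11, against 0.06 to 0.54 in the other lines, and the 18S ribosomal RNA level was 11.12 against 5.23 to 7.06. Probe sets of the same gene differed most in U-HO1 and L-1236, with an SD of 0.72 and 0.70 against 0.47 to 0.55 elsewhere. HL markers were present, since CCL17, FSCN1, FUT4, CD40 and CD70 were above background in all 7 lines, whereas TNFRSF8 (CD30) was below background in SUP-HD1 at 4.36 and TRAF1 in L-1236 at 4.97. Of 5 B-cell markers measured, CD22 was above background in 5 lines, up to 6.81 in HDLM-2, BLK in 4, up to 8.08 in L-540, and CD79A in 3, while CD79B and MS4A1 (CD20) were below it in all 7 lines.

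The promoters of EBF1, PAX5 and IKZF1 are shown because EBF1 had the widest range of levels as measured, PAX5 is the factor nearest to the background level in some lines, and IKZF1 was high in every line. Each sequence holds the 250 bases before a transcription start, taken from RefSeq for GRCh38.p14, in which 8 of the 10 genes had an entry. EBF1 lies on chromosome 5 and this window at chr5:159097957-159098206 on the minus strand. PAX5 lies on chromosome 9 with its window at chr9:37034269-37034518 on the minus strand, and IKZF1 on chromosome 7 with the window of its first listed start at chr7:50304466-50304715 on the plus strand. Capitals mark CAGCTG, a form of the E-box bound by E proteins.
EBF1: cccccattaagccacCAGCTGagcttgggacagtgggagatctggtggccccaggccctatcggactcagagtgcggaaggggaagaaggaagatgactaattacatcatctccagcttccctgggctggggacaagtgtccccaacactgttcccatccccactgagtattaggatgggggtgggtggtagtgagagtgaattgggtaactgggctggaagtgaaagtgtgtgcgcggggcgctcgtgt
PAX5: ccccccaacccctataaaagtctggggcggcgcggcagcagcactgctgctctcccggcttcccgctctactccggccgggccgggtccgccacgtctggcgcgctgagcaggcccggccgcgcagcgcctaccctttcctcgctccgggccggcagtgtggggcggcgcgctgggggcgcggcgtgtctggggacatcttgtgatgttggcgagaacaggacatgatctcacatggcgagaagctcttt
IKZF1: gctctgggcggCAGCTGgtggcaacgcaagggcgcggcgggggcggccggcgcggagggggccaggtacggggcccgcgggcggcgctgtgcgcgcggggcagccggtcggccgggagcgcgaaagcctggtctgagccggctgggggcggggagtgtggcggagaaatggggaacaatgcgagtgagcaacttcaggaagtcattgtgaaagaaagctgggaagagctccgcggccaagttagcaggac
The CAGCTG motif, searched on both strands, was present in 14% of 34943 such windows. The EBF1 and IKZF1 windows hold 1 match each and the PAX5 window none. No match was found in these 3 windows for CAGGTG, another E-box form, which 17.5% of windows hold, nor for the octamer ATGCAAAT, held by 1.63%, the ETS motif GAGGAAG, held by 11.3%, or the FOXO motif TGTTTAC, held by 2.98%. The window of a later listed start of IKZF1, at chr7:50318798-50319047 and not shown, does hold GAGGAAG on the minus strand.

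The lines differed in which factors they kept. SUP-HD1 kept all 9 measured factors, L-1236 kept 5, and the remaining 5 lines kept 7 each. Of all genes, 58.8% were above background in SUP-HD1, 43.5% in L-1236, 53.4% in HDLM-2, 54.1% in KM-H2, 56% in L-428, 57.9% in L-540 and 57.4% in U-HO1. HDLM-2, KM-H2 and U-HO1 lost the same pair of genes, POU2AF1 and BACH2. L-428 lost POU2AF1 and, narrowly, PAX5, L-540 lost SPIB and POU2AF1, and L-1236 lost EBF1, SPIB, FOXO1 and BACH2. Over all lines 49 of 63 combinations of factor and line were above background, a share of 77.8%. This share was 54.5% over all genes and 67.5% over genes with several probe sets, as all 9 factors have. Above background by at least 1 were 38 combinations, or 60.3%, against 41.9% over all genes. By this stricter call SUP-HD1 kept 8 factors, with 45.8% of all genes, and L-1236 kept 3, with 27.1%. U-HO1 and L-540 kept 6 each, with 45.9% and 45.7% of all genes. HDLM-2 and KM-H2 kept 5, with 42.8% of all genes in each, and L-428 kept 5, with 43.1%. IKZF1, IKZF3 and POU2F2 were kept in all 7 lines, as were 34.6% of all genes, and the other 6 factors in some lines, as were 38.7%.

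**Figure D1:**
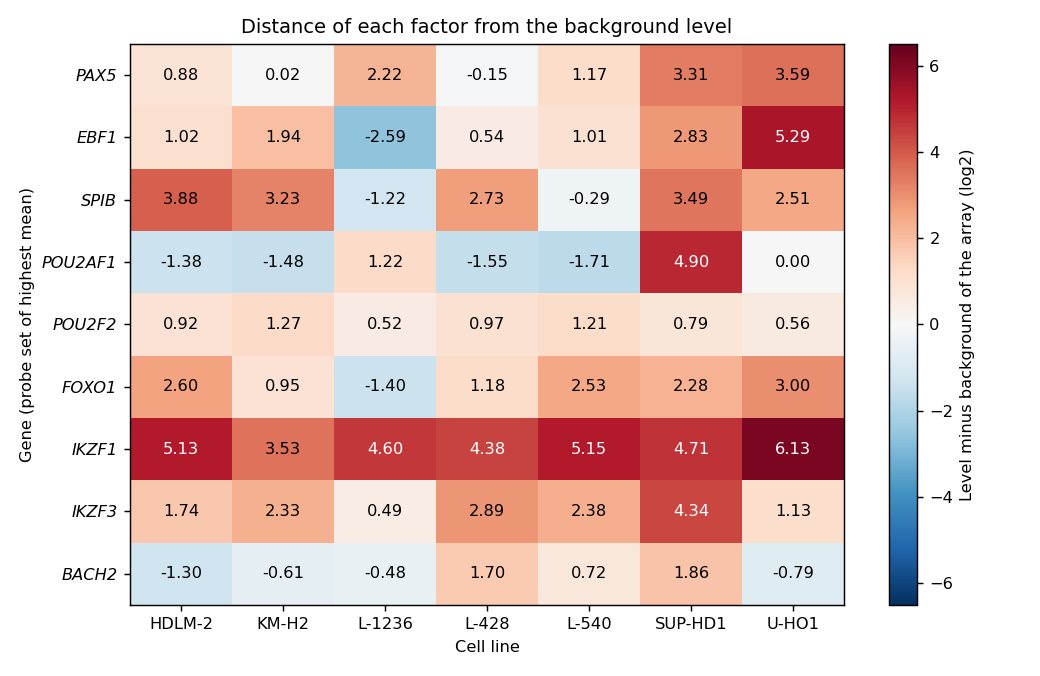
Level minus the background level of the array (log2) for the probe set of highest mean of 9 B-cell TFs (rows) in 7 HL cell lines (columns), 1 array per line, red above background and blue below. SUP-HD1 has no value below 0, L-1236 has 4, POU2AF1 in U-HO1 lies at 0.00 and PAX5 in KM-H2 at 0.02.

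Differences between lines were large for most factors. The range, highest line minus lowest, was 2 or more for 8 of the 9 factors, as it was for 38% of all genes. EBF1 had the largest range as measured, 6.88, followed by POU2AF1 with 6.59, SPIB with 4.52, PAX5 with 3.58, FOXO1 with 3.40, IKZF3 with 3.11, BACH2 with 2.89 and IKZF1 with 2.35, whereas POU2F2 ranged over 0.96, or 2.39 when read from its most variable probe set. When levels under background were set to the background level, the range was 4.59 for EBF1, 4.88 for POU2AF1, 2.00 for FOXO1 and 1.86 for BACH2, so that POU2AF1 then exceeded EBF1, as it did without U-HO1, at 6.59 against 4.32, and without L-1236, at 6.59 against 4.59.

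**Figure D2:**
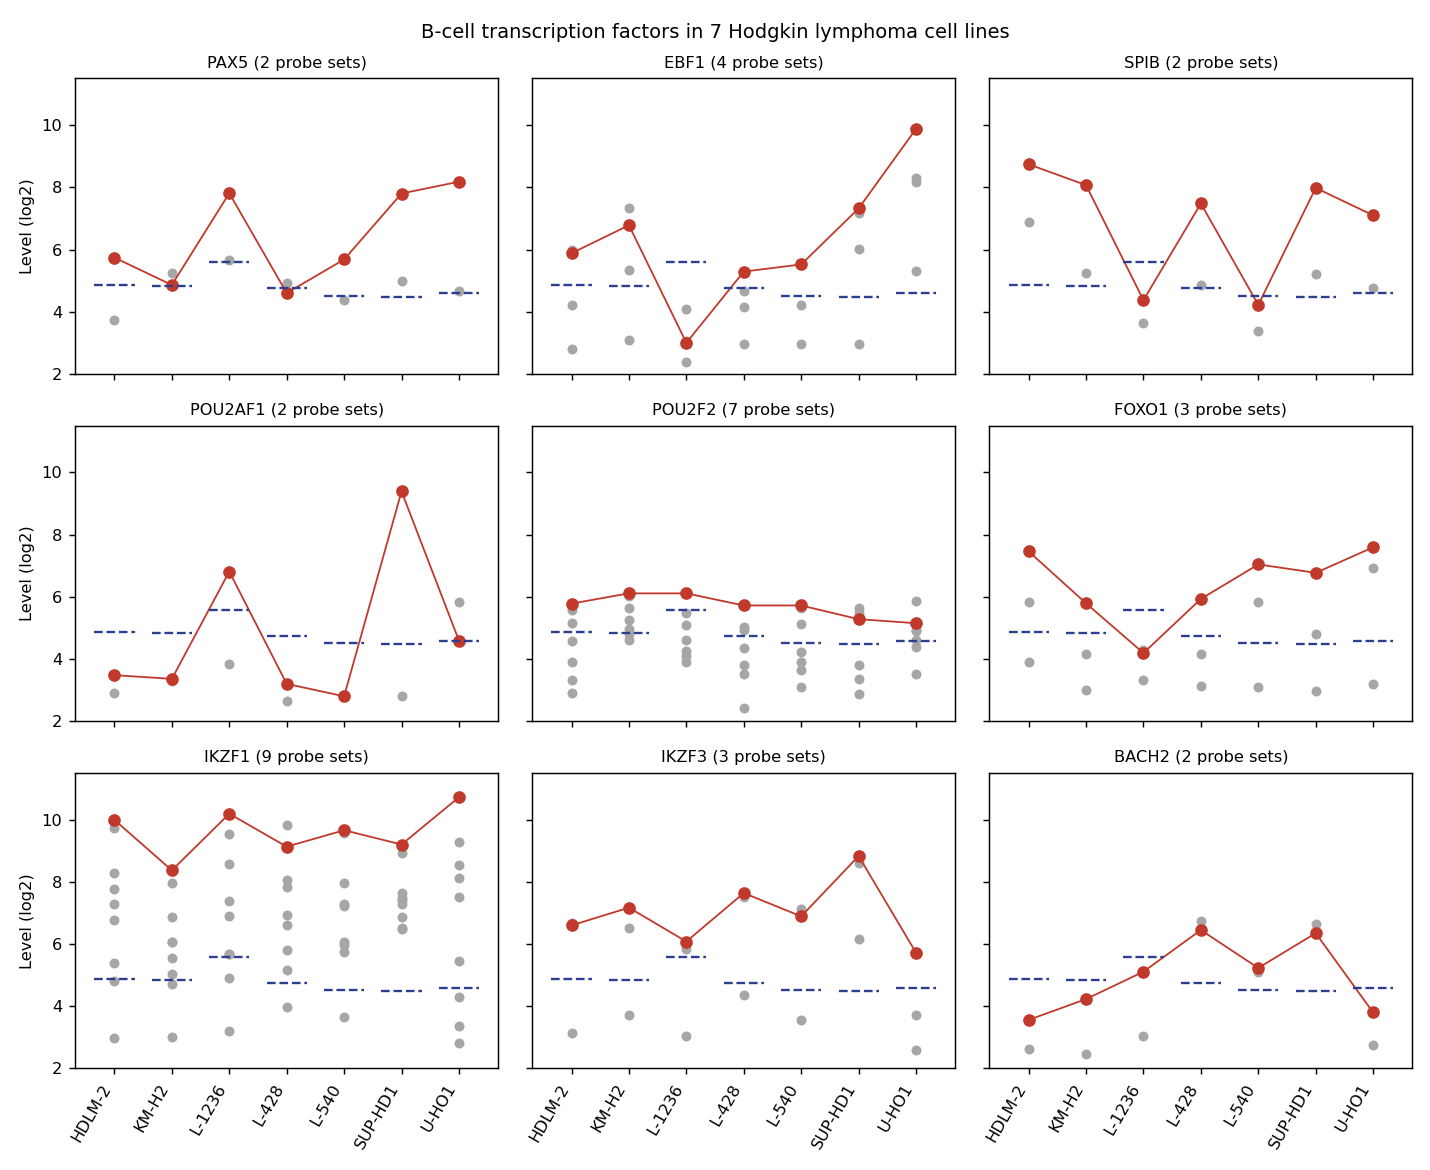
Expression levels (log2) of 9 B-cell TFs in 7 HL cell lines, 1 array per line. Red marks the probe set of highest mean, grey the gene's remaining probe sets, and dashed bars the array backgrounds. EBF1 reaches 9.88 in U-HO1, POU2AF1 stands at 9.39 in SUP-HD1, and IKZF1 lies at 8.37 or above in every line.

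EBF1, a factor that specifies the B-cell lineage, was highest in U-HO1 and lowest in L-1236. Its level was 9.88 in U-HO1, 7.32 in SUP-HD1, 6.78 in KM-H2, 5.88 in HDLM-2, 5.52 in L-540, 5.29 in L-428 and 3.0 in L-1236. U-HO1 stood 2.56 above the next line, and it was the highest line at all 4 EBF1 probe sets, with 8.30, 8.16 and 5.31 at the others, while L-1236 was the lowest at all 4. HDLM-2, L-540 and L-428 could not be told apart by the technical spread. Only in U-HO1 were all 4 probe sets above background, against 3 in KM-H2 and SUP-HD1, 2 in HDLM-2 and L-540 and 1 in L-428. The range fell to 4.59 without L-1236, 4.32 without U-HO1 and 2.03 without both.

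PAX5, which commits cells to the B-lineage, fell into a higher set of 3 lines and a lower set of 4. The level was 8.18 in U-HO1, 7.81 in L-1236 and 7.80 in SUP-HD1. It was 5.74 in HDLM-2, 5.68 in L-540, 4.86 in KM-H2 and 4.60 in L-428. The gap between SUP-HD1 and HDLM-2 was 2.06, while the 3 high lines differed by no more than 0.38. Their order is not secure, since after quantile normalization was repeated L-1236 was at 8.40 and U-HO1 at 8.14. KM-H2 exceeded its background level of 4.84 by 0.02, less than the step of 0.04 in which values of that array occur at this level, so its call as kept is not secure. The other PAX5 probe set gave no such split. It ran from 3.73 in HDLM-2 to 5.65 in L-1236, and the SD between the 2 probe sets was 1.06. In KM-H2 both probe sets were above background. In L-428 the probe set of highest mean lay at 4.60 against a background level of 4.75, and the other was above it at 4.92. The call of L-428 as lost is therefore not secure either.

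The E protein genes TCF3, TCF4 and TCF12 were above background in all 7 lines. TCF12 lay between 4.71 in L-540, close to the background level of 4.51 there, and 8.89 in U-HO1. TCF3 (E2A) lay between 8.93 in U-HO1 and 10.98 in L-540, and TCF4 between 7.77 in L-540 and 11.55 in HDLM-2. ID2, which binds E proteins and keeps them from DNA, was above background in all lines and lowest in L-428 at 8.73, with 10.81 to 12.23 in the others. MSC (ABF1), another E protein antagonist, ran from 5.03, below background, in L-1236 to 9.32 in HDLM-2. ID1 was above background in SUP-HD1 at 8.22 and U-HO1 at 8.25 and in no other line, and ID3 in KM-H2 at 7.49, L-540 at 5.96 and U-HO1 at 9.90.

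FOXO1, a forkhead factor held in check by PI3K-AKT signalling and needed for early B-cell development, was kept in 6 lines. Its level was 7.59 in U-HO1, 7.46 in HDLM-2, 7.04 in L-540, 6.77 in SUP-HD1, 5.93 in L-428, 5.79 in KM-H2 and 4.19 in L-1236. The 4 highest lines followed each other within the technical spread, and L-1236 lay 1.60 below KM-H2. Without L-1236 the range was 1.80. A second probe set gave the same 3 leading lines, at 6.94 in U-HO1, 5.84 in HDLM-2 and 5.83 in L-540, and the third lay below background in all 7 lines. At the second, KM-H2 at 4.15 and L-428 at 4.16 were also below background, and L-1236 at 4.29 was not the lowest line. In KM-H2 and L-428 the call as kept thus rests on 1 of the 3 probe sets.

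SPIB separated L-1236 and L-540 from the other 5 lines. Its level was 8.74 in HDLM-2, 8.07 in KM-H2, 7.98 in SUP-HD1, 7.48 in L-428 and 7.10 in U-HO1, and it was 4.37 in L-1236 and 4.22 in L-540. Between U-HO1 and L-1236 lay a gap of 2.73. The second SPIB probe set also had HDLM-2 highest, at 6.90, and L-540 lowest, at 3.38, and was below background in L-1236 and L-540 only. SPI1 (PU.1), the related ETS factor of myeloid and B-cells, was below background in all 7 lines, from 3.46 to 3.82. HDLM-2 and L-540 thus stood at opposite ends for SPIB, while for PAX5 and EBF1 they differed by 0.06 and 0.36.

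POU2AF1, the coactivator of OCT factors, was kept in SUP-HD1 and L-1236 only. Without SUP-HD1 its range was 4.01. The level was 9.39 in SUP-HD1, 6.81 in L-1236, 4.59 in U-HO1, 3.48 in HDLM-2, 3.36 in KM-H2, 3.20 in L-428 and 2.80 in L-540. SUP-HD1 exceeded the next line by 2.58, a 5.98-fold difference, and U-HO1 was exactly at its background level. The second POU2AF1 probe set did not show this order, being above background only in U-HO1, at 5.84, and at 2.81 in SUP-HD1 and 3.85 in L-1236. The SD between both probe sets was 1.86, the largest of the 9 factors.

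POU2F2 was above background in all 7 lines but close to it. The level was 6.11 in KM-H2 and in L-1236, 5.78 in HDLM-2, 5.72 in L-428 and in L-540, 5.28 in SUP-HD1 and 5.15 in U-HO1. No neighbouring lines in this order differed by more than the technical spread, and POU2F2 exceeded background by 0.52 in L-1236 to 1.27 in KM-H2. Of the 7 POU2F2 probe sets, 1 in L-1236, 3 in HDLM-2, L-428 and L-540, 4 in SUP-HD1 and 5 in KM-H2 and U-HO1 were above background. At the probe set with the largest variance KM-H2 was highest at 4.80, and all 7 lines were below background. The call of POU2F2 as kept therefore changed with the probe set.

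IKZF1 (Ikaros) was the factor farthest above background in 6 of the 7 lines, and in SUP-HD1 POU2AF1 lay farther above it, by 4.90 against 4.71. The level was 10.72 in U-HO1, 10.19 in L-1236, 9.99 in HDLM-2, 9.66 in L-540, 9.20 in SUP-HD1, 9.13 in L-428 and 8.37 in KM-H2. KM-H2 lay 0.76 below L-428, and the other neighbours in this order were within the technical spread. KM-H2 was also lowest at 5 of the 9 IKZF1 probe sets. These 9 did not follow the same course in U-HO1 and SUP-HD1. In U-HO1 a probe set read 3.38 against 6.08 to 8.05 in the other lines and another read 4.29 against 5.56 to 6.76, both below background there, while 3 of the 9 probe sets were highest in this line. The ACTB 3′ excess, though not that of GAPDH, was also largest in U-HO1, as given above, and its part in this was not tested. In SUP-HD1 a further probe set read 6.87 against 2.83 to 3.96 in the other lines, and another 7.64 against 4.73 to 5.96. SUP-HD1 alone had all 9 probe sets above background.

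**Figure D3:**
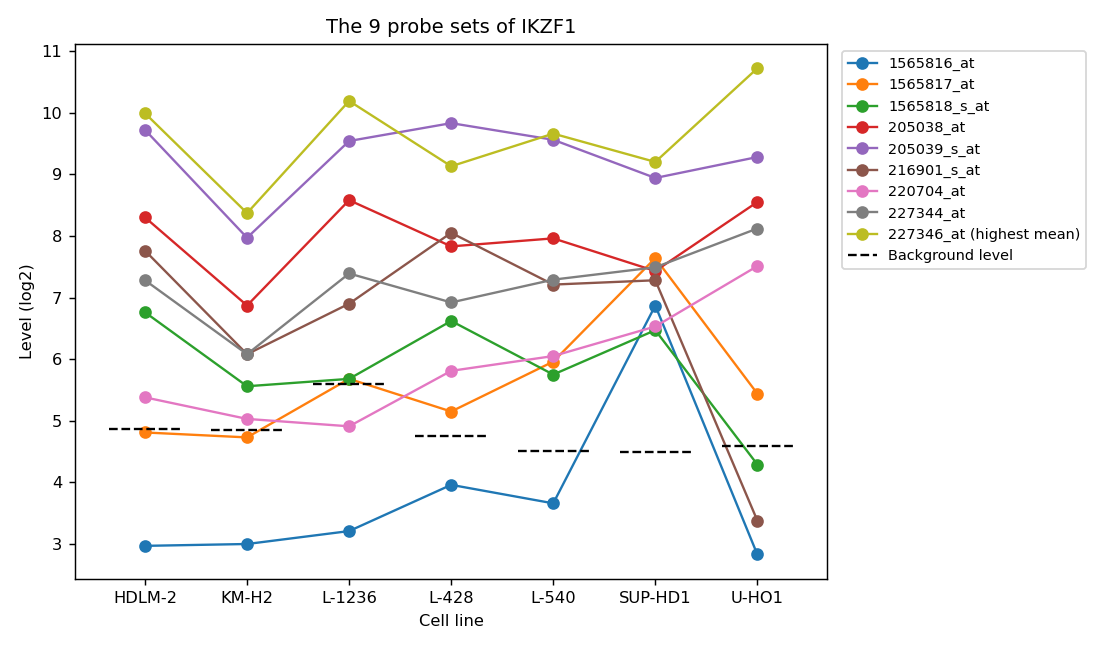
Expression levels (log2) of the 9 probe sets of IKZF1 in 7 HL cell lines, 1 array per line, with the background level of each array as a dashed bar. In U-HO1 a pair of probe sets that reach 5.56 or more in the other lines lie below background, at 3.38 and 4.29, and in SUP-HD1 a probe set below background elsewhere lies at 6.87.

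IKZF3 (Aiolos) ran from 8.83 in SUP-HD1 to 5.72 in U-HO1. Between these lay L-428 at 7.64, KM-H2 at 7.17, L-540 at 6.89, HDLM-2 at 6.60 and L-1236 at 6.08. Without SUP-HD1 the range was 1.92. SUP-HD1 stood 1.19 above L-428 and was highest at all 3 probe sets, and U-HO1 was lowest at all 3. In U-HO1 1 of the 3 was above background. Among the relatives of both genes, IKZF5 was above background in all 7 lines, IKZF2 (Helios) in U-HO1 at 7.75, SUP-HD1 at 7.25, L-428 at 5.33 and L-540 at 4.97, and IKZF4 (Eos) was highest in HDLM-2 at 8.04.

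BACH2 was kept in L-428, SUP-HD1 and L-540. The level was 6.45 in L-428, 6.35 in SUP-HD1 and 5.23 in L-540, and below background at 5.11 in L-1236, 4.23 in KM-H2, 3.80 in U-HO1 and 3.56 in HDLM-2. Both probe sets were above background in the same 3 lines, with 6.75, 6.64 and 5.09 at the second, so that the probe sets made the same calls in every line. L-1236 was 0.12 below L-540 and was called lost at its background level of 5.59. At the second probe set L-1236 read 3.03 against 5.09 in L-540, so this nearness was not repeated there. PRDM1 (BLIMP1), the plasma cell factor whose gene BACH2 represses, was highest in L-540 at 10.18 and U-HO1 at 10.00 and ran from 5.21 to 6.69 in the other lines. BACH1 was above background in all 7 lines.

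IRF8 followed BACH2 across the lines. IRF8, an interferon regulatory factor of germinal centre B-cells and myeloid cells, was at 10.03 in SUP-HD1, 9.40 in L-428, 7.40 in L-540 and 6.60 in L-1236, and below background at 4.75 in HDLM-2, 4.67 in KM-H2 and 4.46 in U-HO1. Pearson's r with BACH2 over the 7 lines was 0.98, rank 2 of 7264 genes compared, after ZNF175 with 0.98 and before MOCS3 with 0.95. The genes compared had a range of at least 2 and were above background in at least 1 line. Such values are a description of 7 arrays, and many genes reach a high r over so few points. The number of genes with r of 0.9 or more was 6 for BACH2, 5 for PAX5, 9 for IKZF1, 19 for IKZF3, 27 for POU2AF1, 31 for SPIB, 74 for EBF1 and 96 for FOXO1.

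For the other factors the genes of most similar course were ZNF503, MBP and CDH11 for PAX5, EME1, PPIP5K2 and INTS3 for EBF1, and ABCC4, ZNF280C and VAMP8 for SPIB. They were INSM1, CDIPTOSP and ID2-AS1 for POU2AF1, ZDHHC6, DPY19L4 and GNA14 for FOXO1, ATXN7L3-AS1, TMUB2 and ZNF117 for IKZF1, and UBE2L6, GPATCH4 and SPOUT1 for IKZF3. Their r ran from 0.93 to 0.99. Among the 9 factors themselves r was highest between PAX5 and POU2AF1, at 0.74, EBF1 and FOXO1, at 0.74, and IKZF3 and BACH2, at 0.73. It was lowest between EBF1 and POU2F2, at -0.77. The POU2F2 probe set used ranged over 0.96 only, and another POU2F2 probe set had an r of -0.75 with it. The r of EBF1 and POU2F2 thus depends on the probe set read. So does that of PAX5 and POU2AF1, whose other probe sets had an r of 0.23 and 0.06 with those used. Between IKZF1 and IKZF3 r was -0.70, and the other IKZF1 probe sets had an r of -0.44 to 0.95 with the one used. All these values share the same 7 arrays.

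Other TFs of B-cells were kept more widely than the genes downstream. Of 16 other B-cell TFs measured, 10 were above background in all 7 lines and none was below it in every line, with 99 of 112 combinations of gene and line, or 88.4%, above background. Over all genes 34.6% were above background in all lines, 26.7% in none, and 54.5% of combinations were. Over genes with several probe sets, as most genes of both lists have, 67.5% of combinations were. The number of probe sets per gene differed between the lists, and its part in their shares was not tested. IRF4 ran from 9.61 in L-1236 to 10.79 in HDLM-2. BCL11A was at 9.70 in U-HO1, 9.44 in KM-H2, 7.92 in L-428, 7.56 in L-1236 and 7.33 in SUP-HD1, and below background at 3.21 in HDLM-2 and 2.41 in L-540. ETS1 was between 6.30 and 9.94 in 6 lines and at 2.51 in SUP-HD1, the line that kept all 9 factors.

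Genes that PAX5, EBF1 and OCT factors are known to activate were mostly low. Of 22 measured, 2 were above background in all 7 lines and 9 in none. Above background were 52 of 154 combinations, or 33.8%, against 54.5% over all genes and 67.5% over genes with several probe sets. No normal B-cells of any stage were measured, so this low share does not measure a loss of these genes. Their median lay below background in each line, from -1.0 in L-540 to -0.39 in KM-H2, whereas that of all genes ran from -0.34 in L-1236 to 0.64 in U-HO1. SUP-HD1 and KM-H2 each had 10 of the 22 above background, HDLM-2 had 7, L-428 had 8, L-540 and U-HO1 had 6 and L-1236 had 5. CD79A, a target of both EBF1 and PAX5 that encodes a chain of the B-cell receptor, was 5.34 in U-HO1, 5.28 in SUP-HD1 and 5.09 in L-540, each above background by less than 1, and below background in the other lines. The 4 genes with the largest range did not share a common order of lines. CR2 was at 10.98 in KM-H2, FCER2 at 9.24 in HDLM-2 and 8.84 in L-1236, LEF1 at 10.12 in KM-H2, 7.75 in SUP-HD1, 7.49 in L-1236 and 7.01 in L-428, and BLK at 8.08 in L-540, and CR2 was near or below background elsewhere, with 4.92 in L-428 as its next value.

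**Figure D4:**
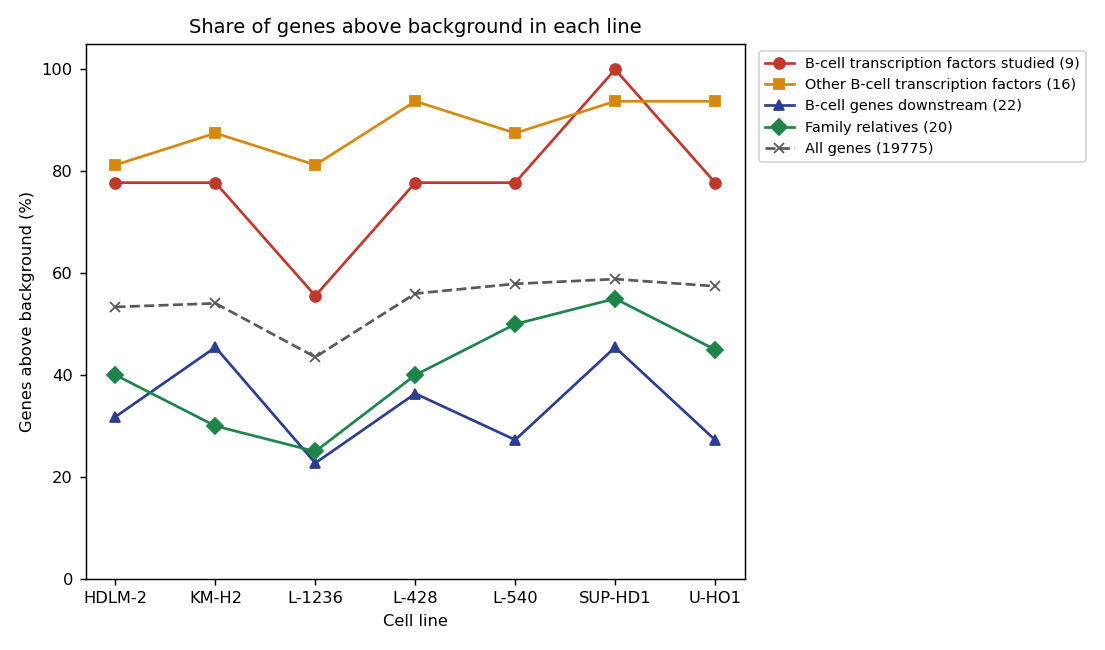
Percent of genes above background in each of 7 HL cell lines, for 9 B-cell TFs, 16 other B-cell TFs, 22 B-cell genes downstream, 20 family relatives of the 9 factors and all 19775 genes. The 22 downstream genes lie below all genes in every line, and the 9 factors and the other TFs lie above all genes in every line.

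Family relatives of the 9 factors were above background in 57 of 140 combinations, or 40.7%, against 54.5% over all genes. Of the 20 relatives, IKZF5, FOXO3, BACH1 and PAX8 were above background in all lines, as were 34.6% of all genes, and 7 in none, as were 26.7%. PAX6 was above background in SUP-HD1 at 6.91, U-HO1 at 6.83 and, narrowly, in L-428 at 4.81, and PAX9 reached 7.74 in L-428. EBF2 and EBF3 were below background in all 7 lines, and EBF4 was above it in HDLM-2 at 5.55, L-540 and U-HO1 at 4.91 and SUP-HD1 at 4.86.

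Markers of other lineages were spread over the lines. Of 13 T- and NK-cell markers measured, 9 were above background in L-540, 7 in L-428, 6 in HDLM-2 and in SUP-HD1, 5 in KM-H2 and in U-HO1 and 4 in L-1236. In L-540 this was 69.2% of the markers against 57.9% of all genes, and in the other lines the share was below that of all genes, with 53.8% against 56% in L-428, 46.2% against 53.4% in HDLM-2 and 46.2% against 58.8% in SUP-HD1. Their summed level on the linear scale was 9903 in L-540, 4159 in HDLM-2 and 1001 to 2695 in the other lines. Such a sum rests mostly on a few genes, on GZMB, PRF1 and NKG7 in L-540 and on GATA3 in L-428, and does not describe the markers as a set. GZMB was at 12.01 in L-540, PRF1 at 11.34 in L-540 and 11.08 in HDLM-2, NKG7 at 11.22 in L-540 and CD2 at 8.95 in HDLM-2 and 7.28 in L-540. Of the CD3 chains, CD3D was highest in KM-H2 at 8.89 and otherwise above background in L-540 at 4.65, CD3G was above background in KM-H2 at 4.91, and CD3E in L-540 at 4.71. GATA3, which drives T-cell development, lay above background everywhere, from 8.26 in L-540 to 11.23 in L-428. Of 8 myeloid markers measured, 4 were above background in HDLM-2, 3 in KM-H2, 2 in L-540, SUP-HD1 and U-HO1, 1 in L-1236 and none in L-428, with ITGAM at 8.22 in KM-H2, CSF1R at 7.65 in L-540, CEBPA at 6.42 in U-HO1 and CD14 at 6.02 in KM-H2. The part of these lineage genes in the levels of the 9 factors was not tested.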

How the data were processed

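Total RNA of 7 HL cell lines was hybridised to Affymetrix HG U133 Plus 2.0 arrays, 1 per line (HDLM-2 is also spelled HDML-2 in the labels). Per the methods and labels, the authors used RMA background correction with quantile normalization (affy, limma; no version was stated). The deposited log2 values are levels between 1.99 and 14.17, with medians of 4.29 to 4.46, and not ratios to a mean. Their SD was 1.88 in L-1236 and 2.15 to 2.17 in the other lines. Arrays quantile normalized together would have nearly the same distribution of values, which L-1236 did not have. Levels of L-1236, and its calls as lost, may therefore not be on a common scale with the other lines. Between 4.5 and 6 at least 99.1% of them fell on values shared by 50 or more probe sets, with a median step of 0.02 to 0.05 by line. No value was missing, and the number of unused columns was 0.

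A single symbol was annotated for 41097 probe sets, several for 1801 and none for 11777. Symbols were updated through the RefSeq gene table of GRCh38 for 41043. Each gene took the values of its highest-mean probe set. Genes named in the text are all members, in each companion list up to 4 with the largest range, and the 3 of highest Pearson's r with each member. IRF4, TCF3, TCF4, TCF12, EBF4, CD22, CD3D, CD3G, CD79A, CD79B, MS4A1, CD3E, GATA3, SPI1, EBF2, EBF3, IKZF5, FOXO3, BACH1, PAX8, FUT4, CD40 and TRAF1 were named from the lists after their values were seen. Members and lists (family relatives, downstream B-cell genes, other B-cell TFs, E protein antagonists, T- and NK-cell, myeloid and HL markers, and genes every cell uses, of which all 8 measured were above background in all lines) were chosen with earlier results of these data known, and the motifs after the levels were seen. No test between lines was possible. Alternatives varied the probe set, scaling, background, margin and lines used. Computations used Python 3.11.15, numpy 2.4.6 and pandas 2.3.3 and were tested on simulated data.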

Additional observations from a re-analysis of the deposited data

Results flagged for a closer look

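In 12 of 67 sets of values 1 line lay apart from the remaining lines, judged by Dixon's ratio of the gap at the end of the order to the full spread. By chance about 1 in 20 sets would be picked, and many of the genes were picked for a large range, so this rate is no chance level for them. Among the 34 probe sets of the factors there were 6, none of which was the probe set with the highest mean.

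U-HO1 was highest at an EBF1 probe set, at 5.31 against 3.08 in KM-H2, and at the second POU2AF1 probe set, at 5.84 against 3.85 in L-1236, and lowest at an IKZF1 probe set, at 3.38 against 6.08 in KM-H2. SUP-HD1 was highest at a pair of IKZF1 probe sets, at 6.87 against 3.96 in L-428 and at 7.64 against 5.96 in L-540. HDLM-2 was highest at a FOXO1 probe set, at 3.90 against 3.32 in L-1236, below background throughout.

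Among companion genes, CR2 stood at 10.98 in KM-H2 against 4.92 in L-428, NKG7 at 11.22 in L-540 against 5.52 in HDLM-2, GZMB at 12.01 in L-540 against 4.75 in HDLM-2, and GUSB at 10.17 in L-540 against 8.87 in L-428. ID2 was lowest in L-428, at 8.73 against 10.81 in L-1236, and B2M was lowest in L-428, at 11.80 against 13.00 in U-HO1.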

How the results depend on the processing

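No paired analysis was possible because there was 1 array for each line. The alternative without both U-HO1 and L-1236 was chosen after the data were seen. Of 364 levels under alternatives 288 moved by no more than the technical spread, as did 98 of 124 ranges. Leaving a line out seldom changes a range unless that line is highest or lowest, so part of the latter count was fixed in advance. Part of the count of levels was fixed as well. Several alternatives read the same probe set, and raising values to background leaves higher values unchanged. Centring each array on its median and repeating quantile normalization changed none of the 63 calls. Both keep the order of values within an array, from which its background level is also taken. This outcome was therefore largely fixed in advance and says little about the calls. Some levels of L-1236 rose when quantile normalization was repeated, though within the technical spread. POU2AF1 went from 6.81 to 7.42 there and POU2F2 from 6.11 to 6.58. The 49 calls above background became 40 with the probe set of largest variance, 39 with the mean of all probe sets, 52 and 43 with the 90th and 99th percentile as background, and 48 with keratin associated protein and taste receptor probe sets as background. The 90th percentile added PAX5 in L-428, POU2AF1 in U-HO1 and BACH2 in KM-H2. FOXO1 and BACH2 gave no value without probe sets marked x or s, which can match several transcripts, and of the E protein antagonists only ID4 was then measured, above background in 0 of 7 lines. The cause was not tested for the changes that follow. Signal over background limits low genes, above all in L-1236.

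Read from the most variable probe set, the range was 2.39 for POU2F2, 4.67 for IKZF1, 4.88 for IKZF3 and 4.27 for BACH2, U-HO1 kept 4 factors, and family relatives were above background in 32 combinations. With the mean of all probe sets the range was 2.00 for PAX5 (1.995), 4.79 for EBF1, 3.30 for POU2AF1, 1.98 for FOXO1, 1.57 for IKZF1, 3.86 for IKZF3 and 3.52 for BACH2, HDLM-2 kept 4 factors and L-1236 kept 2. At the 99th percentile HDLM-2 kept 4 factors, and T- and NK-cell markers were above background in 25 combinations. With a margin of 1, L-1236 kept 3 factors, and 31 combinations of downstream B-cell genes, 22 of T- and NK-cell markers and 8 of myeloid markers remained. With values raised to background the ranges were 4.59 for EBF1, 4.88 for POU2AF1, 2.00 for FOXO1 and 1.86 for BACH2. Without L-1236 and U-HO1 they were 2.03 for EBF1, 1.67 for FOXO1, 1.62 for IKZF1 and 2.23 for IKZF3.

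With each line left out in turn the range ran from 3.21 to 3.58 for PAX5, 4.32 to 6.88 for EBF1, 3.85 to 4.52 for SPIB, 4.01 to 6.59 for POU2AF1 (lowest without SUP-HD1), 0.83 to 0.96 for POU2F2, 1.80 to 3.40 for FOXO1 (lowest without L-1236), 1.59 to 2.35 for IKZF1, 1.92 to 3.11 for IKZF3 (lowest without SUP-HD1) and 2.65 to 2.89 for BACH2.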
